A study of Mus musculus with 72 samples.

Results

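Of the 17857 reporter integrations listed for the 6 cell pools of the study, 1019 lay on mouse chromosome 3. They were chosen by their chromosome alone, whatever their pool, strand or expression. Pool mPGK-A held 163 of them, mPGK-B 173, mPGK-C 142, mPGK-D 203, mPGK-E 175 and mPGK-F 163. The first stood at position 3379570 and the last at position 159502389 of mm9, so they spanned 156 Mb, with 6.53 integrations per Mb and a median spacing of 65.3 kb. Chromosome 3 ranked 17th of 19 autosomes in integrations per Mb (range 6.04 to 9.0).

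The cells were EBRTcH3, a mouse embryonic stem cell line in which the endogenous Rosa26 promoter drives a tetracycline-controlled transactivator. All pools carried the same kind of reporter, a barcoded piggyBac construct with the mouse PGK promoter (mPGK), brought in with a plasmid for the mPB transposase. All were kept with leukemia inhibitory factor, the MEK inhibitor PD0325901 and the GSK-3 inhibitor CHIR99021. There was no untreated or other-promoter group, and the design asks how the place of integration sets the output of 1 promoter. Only cells sorted for low eGFP signal founded the pools. They grew for 5 days, small pools grew for 7 days, and each pool was then divided into 2 cultures that grew apart for 7 days. These cultures are technical replicates, so a test within a pool measures only the spread between cultures, and the 6 pools serve as replicates elsewhere. The table holds barcode counts only, so the cell type was not checked against marker genes.

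TRIP (a method that integrates many reporters in parallel) reads the same promoter at many places of the genome, each copy being known by a random barcode in its transcript. The piggyBac transposon inserts at TTAA sites and is known to favour open, gene-rich chromatin, and the mPGK promoter comes from a housekeeping gene of glycolysis. The output of such a reporter can depend on the chromatin around it, which is called a position effect. Expression below is the log2 ratio of a barcode's share of RNA reads to its share of DNA reads, averaged over both cultures, minus the median of its pool, so 0 is a typical reporter of that pool.

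The 5 highest and the 5 lowest reporters of the chromosome are shown by their barcodes, since the barcode is all that tells these copies apart. They are printed in lower case as the deposited table spells them, with no base marked.
mPGK-C, position 88379102, plus strand: atgcacagtagtccaa
mPGK-F, position 133198915, plus strand: tctgcagtgcccgatg
mPGK-E, position 129352527, minus strand: ccgttaccgagcctag
mPGK-E, position 133205943, minus strand: gctggttaataccacg
mPGK-D, position 63635256, plus strand: ttattttcttcgcatc
mPGK-D, position 156961124, minus strand: ctgtgcatagtatacg
mPGK-E, position 102501463, plus strand: tatcgacgaagtggac
mPGK-C, position 31639940, plus strand: taactctaatagtgcc
mPGK-E, position 61109633, minus strand: gcttcctcgcataggt
mPGK-C, position 43288964, minus strand: gtttgataacctgacg

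The highest reporter, at 88379102 in mPGK-C, had 2122 and 1399 DNA reads and 59938 and 56862 RNA reads in the first and second culture. Its expression was 6.21 and 6.86 in the cultures and 6.55 on average, 93.5-fold above the pool median (edgeR quasi-likelihood test, Benjamini-Hochberg adjusted p = 1e-08). Both cultures put it far above a typical reporter. The next, at 133198915 in mPGK-F, reached 6.6 and 6.35 in the cultures, and a reporter of mPGK-E at 133205943, on the other strand, reached 5.39 and 5.2. These 2 neighbours came from separate pools. The reporter at 129352527 in mPGK-E had an expression of 5.34 and 6.24 in the cultures, and the one at 63635256 in mPGK-D 5.08 and 5.32. The last of these stood alone, with its nearest neighbour 115.0 kb away.

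The 5 lowest reporters had no RNA read in either culture, so their log2 values rest on the pseudocount of 0.5 RNA reads and only a bound is given. A floor of 3 RNA reads over both cultures is used for it. The reporter at 156961124 in mPGK-D had 7711 and 9565 DNA reads, which places it at least 1780-fold lower than the median of its pool. The reporter at 102501463 in mPGK-E had 1440 and 1035 DNA reads and was at least 283-fold lower. The bounds for the reporters at 31639940, 61109633 and 43288964 were at least 179-fold, 136-fold and 76.4-fold lower. Means below include such reporters at the value the pseudocount gives. In all, 9 reporters of the chromosome (0.883%) had no RNA read, from pools mPGK-B, mPGK-C, mPGK-D, mPGK-E and mPGK-F. The order of these 9 follows their DNA reads and is not a ranking of measured expression. The silent reporter at 61109633 lay 9.52 kb from its nearest neighbour, and the one at 43288964 lay 880.0 kb from it.

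Across the chromosome, expression ran from -4.54 at the 5th to 3.32 at the 95th percentile, a 232-fold range, with a median of -0.28 and a mean of -0.42. The SD between reporters was 2.39, and the error SD of a single culture, from the differences between the cultures of a pool, was 0.84. The latter covers technical error only, not the spread between separate copies at the same place. The cultures ranked the reporters of a pool with a Spearman rho of 0.91 (mPGK-D) to 0.953 (mPGK-F), given as a description. More than 16-fold below the pool median lay 75 reporters (7.36%, against 6.38% on the other autosomes), and more than 16-fold above it lay 23 (2.26%, against 2.49%). The listed barcodes of a pool and culture summed to between 3386477 and 3693449 DNA reads and between 2880244 and 3508366 RNA reads. A median reporter of the chromosome had 1756 DNA and 478 RNA reads over both cultures. These are PCR reads without molecular identifiers, so bounds from counts cover counting error only.

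In the test of RNA against DNA reads of each reporter, 324 (31.8%) stood above the median RNA to DNA ratio of the pool at an adjusted p under 0.05, where 36.9% of all 17857 reporters were. Below it stood 390 (38.3%), where 33.7% of all reporters were. The other 305 were not called (edgeR quasi-likelihood test in each pool, Benjamini-Hochberg over all reporters). The smallest differences called on chromosome 3 were 0.42 above and -0.43 below the median. At this scaling more were called lower than higher in 5 pools, by the widest margin in mPGK-D with 49 higher and 85 lower. In mPGK-C, 55 were higher and 49 lower.

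The mean on chromosome 3 fell below that of the other autosomes in 5 of the 6 pools. The differences were -0.16 in mPGK-A, -0.38 in mPGK-B, 0.15 in mPGK-C, -0.51 in mPGK-D, -0.11 in mPGK-E and -0.41 in mPGK-F. Their mean was -0.24 ± 0.25 (SD, n = 6 pools), a 1.18-fold lower level, and it did not pass the exact sign-flip permutation test over pools (two-sided p = 0.09375, the smallest possible p being 0.03125). Plus strand reporters, 483 of the 1019, differed from minus strand reporters by -0.07 ± 0.24 (SD, n = 6 pools; exact permutation p = 0.62), with 3 pools on each side. The strand difference turned on the culture used: it was 0.03 from the second culture alone and -0.17 from the first alone, the latter with all 6 pools below 0 (exact permutation p = 0.031). It was 0.02 without mPGK-B, the pool with the largest difference (-0.51).

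**Figure D1:**
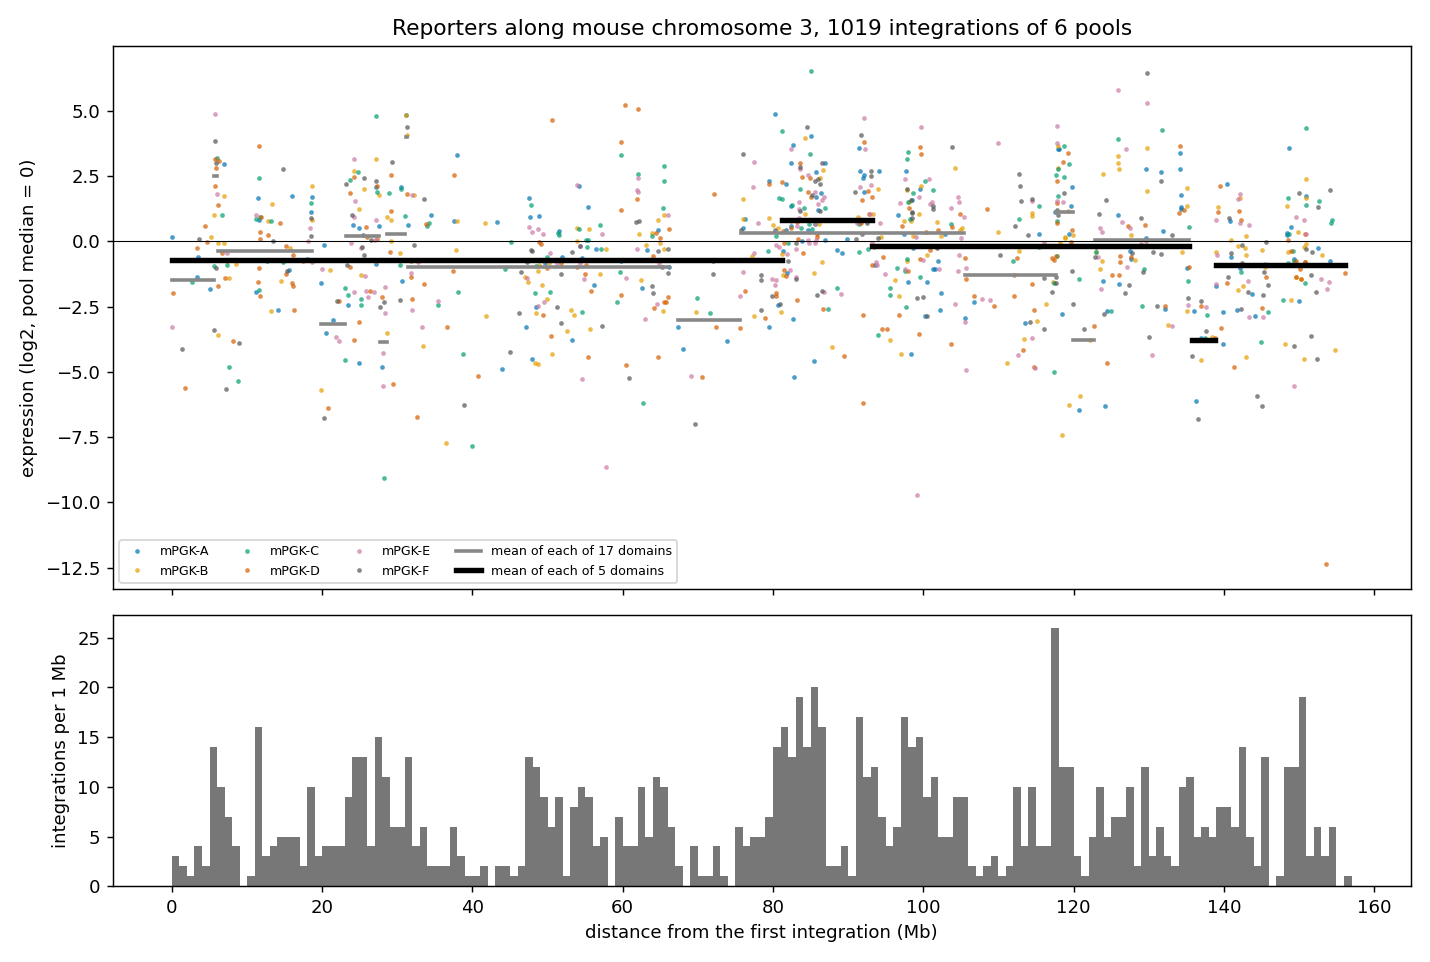
Expression of all 1019 reporters (upper panel, log2, coloured by pool) and integrations per 1 Mb (lower panel) against the distance from the first integration in Mb. Thick lines are the means of 5 domains and grey lines those of 17 finer domains. The stretch with a mean of 0.82 is also the most crowded of the 5, and the short one with a mean of -3.76 holds 14 reporters, all below 0.

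Seen in stretches of 20 Mb, the middle of the chromosome had the highest mean. From 80000001 to 100000000 the mean was 0.41, with 191 reporters and 85 called higher against 48 lower. It was the only stretch of the 8 with a mean above 0. The neighbouring stretch from 60000001 had a mean of -0.8, and that from 40000001 the lowest mean, -1.24, with 12 of 99 reporters higher and 49 lower. The last stretch, from 140000001, had a mean of -1.09, with 25 of 132 higher and 65 lower. In the 40000001 stretch the pool means ran from -1.95 to -0.56 and in the last from -1.6 to -0.55, so all pools lay below 0 in both. In the 80000001 stretch they ran from -0.21 to 0.81. The other autosomes had a mean of -0.16, and the stretch from 120000001, at -0.08, also lay above that level.

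Fixed windows of 2 Mb were tested with the 6 pools as replicates, in a fit over all windows of the genome. On chromosome 3, 66 windows held at least 5 reporters from at least 3 pools, 22 of them with a mean above 0 and 44 with a mean below it. The split of the genome's windows about 0 is not given here. Reporters of the other autosomes also had a mean below 0 (-0.16), so this split is not called particular to chromosome 3. At an adjusted p under 0.05, 2 windows (3.03%) were higher than the pool medians, where 6.69% of the genome's windows were. Lower were 8 (12.1%), where 12.6% of the genome's windows were (limma, Benjamini-Hochberg over the 1106 windows tested). The share of lower windows was thus close to that of the whole genome. A further 13 windows beyond the first 2 Mb held only 1 to 4 reporters and were not tested. All 13 had means below 0, from -6.14 to -1.35, and of their 37 reporters 30 were called lower and 2 higher. The tested windows thus leave out the emptiest places of the chromosome, where these means were low.

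The low window from 140000001 to 142000000 was the most even across pools. Its mean was -3.23 ± 0.64 (SE), 9.36-fold below the pool medians (limma, adjusted p = 0.0016). Its 9 reporters had pool means of -3.68 in mPGK-A, -4.1 in mPGK-B, -3.25 in mPGK-C, -2.47 in mPGK-D, -2.5 in mPGK-E and -2.85 in mPGK-F. All pools were low, no reporter in it stood above -2.28, and all 9 were called lower. The window before it, from 138000001, was mixed: its 15 reporters ran from -6.79 to 2.04, 4 were called higher and 10 lower, and the mean was -1.72 ± 0.58 (adjusted p = 0.036).

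The window from 24000001 had a mean of -3.22 ± 0.76 (adjusted p = 0.0047), with 7 reporters of 5 pools that ran from -6.38 to -1.11. Its pool means were -3.03 in mPGK-A, -1.11 in mPGK-B, -4.33 in mPGK-D, -3.74 in mPGK-E and -2.28 in mPGK-F. All 5 pools lay below 0, and 6 of the 7 reporters were called lower.

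The 2 windows with the lowest means each rested on 5 reporters. From 72000001 the mean was -4.44 ± 0.93 (adjusted p = 0.0019), and the single reporters stood at -2.71 in mPGK-B, -2.18 in mPGK-C, -5.2 in mPGK-D, -5.15 in mPGK-E. That of mPGK-F had no RNA read, which puts it at least 55-fold lower than a typical reporter of mPGK-F. From 124000001 the mean was -4.18 ± 0.94 (adjusted p = 0.0035), from -6.45 in mPGK-A, -5.93 and -3.77 in mPGK-B, -1.43 in mPGK-C and -3.34 in mPGK-F. All 10 of these reporters were called lower. Both means lean on reporters with no RNA read in 1 or both cultures, and with 5 RNA reads added in place of 0.5 they were -3.3 and -3.35 (adjusted p = 0.0027 for both). Leaving out a pool that held reporters there often left too few to test: the window from 72000001 could not be tested without any 1 of its pools, nor that from 124000001 without mPGK-A, mPGK-B, mPGK-C or mPGK-F. The other low windows also held reporters with no RNA read in 1 culture. With 5 RNA reads added, their means were -2.77 from 24000001, -1.65 from 118000001 and -1.42 from 138000001. They were -2.9 from 140000001, -1.74 from 146000001 and -1.8 from 148000001, and all stayed called lower.

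Near the far end of the chromosome, 2 windows in a row were low. That from 146000001 had a mean of -1.95 ± 0.63 (adjusted p = 0.029), with pool means of -2.44 in mPGK-A, -1.24 in mPGK-B, -1.25 in mPGK-E and -3.92 in mPGK-F. Its 11 reporters ran from -5.91 to 0.63, and 7 were called lower. The mPGK-B mean leaned on 1 reporter at -4.42, the others standing at -0.24, 0.21 and -0.52. That from 148000001 had a mean of -2.06 ± 0.56 (adjusted p = 0.01), and all 13 of its reporters stood between -6.32 and -0.01, with 8 called lower. In its 5 pools the means ran from -3.29 in mPGK-C to -0.66 in mPGK-B. The window from 118000001 had a mean of -1.92 ± 0.64 (adjusted p = 0.034) but no common direction, with mPGK-A at 0.28 and mPGK-C at 0.58 while the other 4 pools lay between -3.71 and -2.39.

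Both high windows lay in the crowded middle of the chromosome. That from 88000001 held 38 reporters, the most of any window here, with a mean of 1.15 ± 0.33 (2.22-fold, adjusted p = 0.014). Its pool means were 1.05 in mPGK-A, 0.27 in mPGK-B, 2.35 in mPGK-C, 1.29 in mPGK-D, 0.9 in mPGK-E and 1.11 in mPGK-F. Every pool was above 0, yet single reporters ran from -4.57 to 6.55, with 24 called higher and 4 lower. That from 94000001 held 26 reporters with a mean of 1.26 ± 0.43 (2.4-fold, adjusted p = 0.037), and mPGK-D, at -0.16, was its only pool below 0. The other 4 of the 5 most crowded windows, from 100000001 (34 reporters), 120000001 (33), 84000001 (30) and 86000001 (28), had means of 0.34, 0.53, 0.29 and 0.75 and were not called.

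Several of these calls hung on single pools, a culture or a setting. Without mPGK-F, 2 windows were called lower in place of 8, and without mPGK-E 4, without mPGK-A 5 and without mPGK-B 5. Leaving out any single pool did not end the calls from 24000001 and 140000001. The window from 88000001 missed the threshold without mPGK-C (mean 0.97, adjusted p = 0.0503), and that from 94000001 without mPGK-A (0.94, 0.185), mPGK-E (1.0, 0.179) or mPGK-F (1.23, 0.103). That from 118000001 missed it when mPGK-B (adjusted p = 0.101), mPGK-D (0.147), mPGK-E (0.113) or mPGK-F (0.104) was left out, and that from 138000001 without mPGK-A, mPGK-E or mPGK-F (0.0959 to 0.261). The window from 146000001 missed it without mPGK-A, mPGK-E or mPGK-F (0.0571 to 0.145), and that from 148000001 without mPGK-F (0.0805). By culture, the window from 94000001 missed it without replicate 1 (0.0701) or replicate 2 (0.0501), that from 118000001 without replicate 1 (0.102) and that from 138000001 without replicate 2 (0.0924). With the lowest DNA counts removed, the windows from 94000001 (0.064) and 138000001 (0.0581) missed it, and against the pool mean those from 118000001 (0.058) and 138000001 (0.0625). Without weights, those from 88000001, 94000001, 118000001, 138000001 and 146000001 missed it (0.0594 to 0.141).

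**Figure D2:**
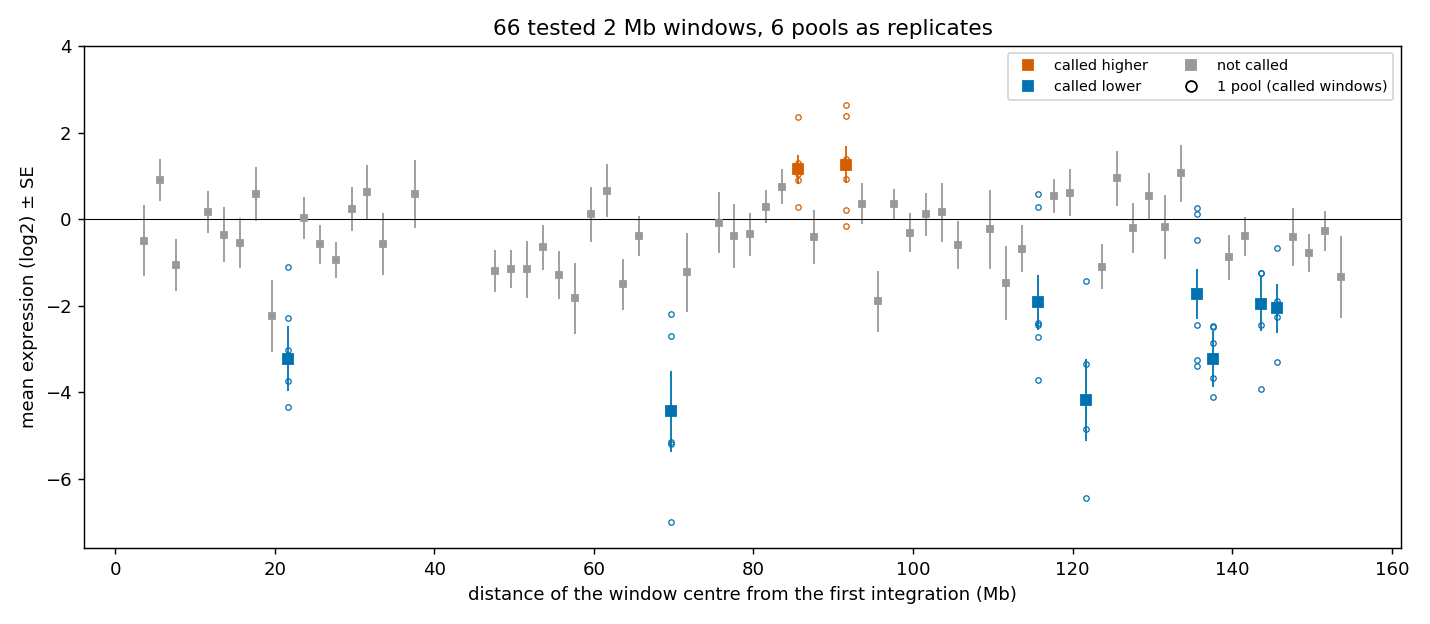
Mean expression (log2 ± SE) of the 66 tested windows of 2 Mb against the distance of the window centre from the first integration in Mb. Open circles are the means of single pools in the 10 called windows. In 6 of the 8 low windows and in 1 of the 2 high ones every pool with reporters lay on the same side of 0.

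Windows rich in reporters tended to be high. Across the 66 tested windows, the number of reporters and the mean had a Pearson's r of 0.486 (Spearman's rho 0.432), near the 0.498 (0.522) over 1008 windows of the other autosomes. The same held at 100 kb. The 193 reporters with no other integration within 100 kb had a mean of -1.77, the 420 with 1 to 2 had -0.62, the 370 with 3 to 6 had 0.33, and the 36 with 7 or more had 1.59. Pool means ran from -2.25 to -1.01 among the first and from 0.58 to 2.41 among the last, so each pool mean of the former lay below each of the latter. More than 16-fold below the pool median were 16.6% of the lone reporters and 0 of the 36 most crowded ones. Were the 36 independent, this would allow a share of up to 8.33%. They lie close to other reporters, so the share allowed may be larger. On the other autosomes the class means were -1.36, -0.45, 0.52 and 1.39. DNA reads, which follow how many cells carried a copy, showed next to no correlation with expression on chromosome 3 (r = 0.021 on log2 DNA reads, 1019 reporters).

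Stretches without integrations were bordered by low reporters. There were 78 gaps of at least 500 kb between consecutive integrations of any pool, 17 of them at least 1 Mb, and together they made up 64.3 Mb or 41.2% of the span. The 140 reporters at their borders had a mean of -2.07, against -0.15 for the other 879. Called lower were 92 of the 140 (65.7%) and called higher 8 (5.71%), against 33.9% and 35.9% of the rest. A border reporter has an empty side by construction, so this comparison overlaps with that by neighbours. The border reporters lay below the rest in every pool, by -1.54 in mPGK-A, -2.37 in mPGK-B, -2.47 in mPGK-C, -1.73 in mPGK-D, -1.48 in mPGK-E and -1.86 in mPGK-F. More than 16-fold low were 17.9% of them and 5.69% of the rest.

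The longest gap ran from 149248009 to 151226946 (1.98 Mb), between reporters of mPGK-C at -2.72 and -2.23. The next ran from 12246568 to 14144723 (1.9 Mb), between -3.88 and -0.72, and from 77209862 to 78949852 (1.74 Mb), between -3.81 and -2.08. The reporters on both sides of these 3 gaps were called lower. The gaps from 61119151 to 62674192 (1.56 Mb) and from 45212408 to 46699740 (1.49 Mb) were uneven. The former lay between a reporter at -0.3, which was not called, and 1 at -2.32, and the latter between -2.85 and 0.76, called lower and higher. The other autosomes held 844 such gaps, 23 of them longer than the longest here, up to 8.03 Mb.

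Dividing the chromosome into stretches of constant mean gave 5 domains. This is a description that uses the reporters of all pools at once and carries no test. The other autosomes gave 1 to 11 domains (median 6) by the same rule. The first ran from 3379570 to 84573839 (81.2 Mb, 438 reporters) with a mean of -0.72, and the second from 84617882 to 96502078 (11.9 Mb, 136 reporters) with a mean of 0.82. The second was the only high one and also the most crowded, at 11.4 reporters per Mb against 4.52 to 7.32 in the other 4. In it 55.1% of reporters were called higher and 17.6% lower, and pool means ran from 0.21 in mPGK-D to 1.3 in mPGK-F. The second domain was not even along its length. Its 2 Mb window from 90000001 held 11 reporters with a mean of -0.41, and that from 92000001 only 4 with a mean of -1.69. The third ran from 96530979 to 138739408 (42.2 Mb, 309 reporters) with a mean of -0.19, with 111 called higher and 109 lower. The last ran from 142326646 to 159502389 (17.2 Mb, 122 reporters) with a mean of -0.91.

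The fourth domain, from 139165105 to 142265495, was the shortest and the lowest, with 3.1 Mb, 14 reporters and a mean of -3.76 (SD 1.34). Its reporters came from all 6 pools, 3 in mPGK-A, 2 each in mPGK-B, mPGK-C and mPGK-D, 1 in mPGK-E and 4 in mPGK-F. Pool means were -4.15, -4.1, -3.25, -3.09, -2.5 and -4.22 in that order. All 14 were called lower, which makes this domain also the longest run of low reporters on the chromosome. None of the 14 was without RNA reads in both cultures, and their median of 2224.5 DNA reads was above that of the chromosome. Those at 139618568, 139980258 and 140366045 had no RNA read in 1 culture. Their values of -6.11, -6.79 and -4.54 thus rest in part on the pseudocount, as do the means that include them. The last reporter before it, at 138739408 in mPGK-C, stood at 0.56 and was called higher, and the first inside it, at 139165105 in mPGK-F, at -4.39. The first after it, at 142326646 in mPGK-B, stood at -0.39 and was not called.

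With a finer setting the chromosome fell into 17 domains, from 115 kb to 34.8 Mb long, with a median of 4.33 Mb. The other autosomes then gave 3 to 19 domains (median 12). Of the 17, 5 had means below -2 and 2 above 2. The highest spanned 115.0 kb, from 34552741 to 34667437, with a mean of 3.99. Its 5 reporters stood at 4.83 in mPGK-A, 4.86 and 4.07 in mPGK-B, 4.37 in mPGK-F and 1.8 in mPGK-D, and all were called higher. The other high one, from 9034340 to 9357953 (324.0 kb), held 10 reporters of 5 pools with a mean of 2.49, 9 called higher and 1 lower.

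The 5 low domains of the finer setting differed in size and crowding. From 31123703 to 31969526 (846.0 kb), 10 reporters of 6 pools had a mean of -3.87 and all were called lower. From 123263486 to 126063245 (2.8 Mb), 7 reporters of 5 pools had a mean of -3.79, with 6 called lower. From 23166460 to 26366050 (3.2 Mb), 15 reporters had a mean of -3.17 and all stood below 0. The domain from 70733030 to 79052548 (8.32 Mb) was the emptiest, with 15 reporters or 1.8 per Mb and a mean of -3.0. Of its reporters 14 were called lower and 1, at 1.83, higher. The remaining low domain is the one from 139165105 described above.

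Domains drawn from 5 pools carried over to the pool left out only in part. At the finer setting, the low domain near 140 Mb was found each time when the 6 pools were left out in turn, with its first reporter between 138638092 and 139421639 and its last at 141760785 or 142265495. At the main setting, which gave the 5 domains, it was found without mPGK-C, mPGK-D or mPGK-E, and no domain with a mean below -2 was found without mPGK-A, mPGK-B or mPGK-F. Over all low domains drawn in this way at the finer setting, 37 of the 43 reporters of the left-out pools inside them stood below 0 (86.0%, against 55.1% of the chromosome). Over all domains, the mean from 5 pools and the expression of the left-out reporters had a Pearson's r of 0.0966 (without mPGK-B) to 0.237 (without mPGK-E) at the main setting and of 0.214 to 0.353 at the finer one. In windows of 2 Mb, a pool's means and those of the other 5 had an r of 0.391 (mPGK-C, 39 windows) to 0.48 (mPGK-F, 40 windows), somewhat under the 0.469 to 0.505 on the other autosomes.

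Some edges between domains were narrow. Each edge is the interval between the last reporter of a domain and the first of the next, so its width is the local spacing. The 16 edges of the finer setting had a median width of 97.8 kb, and 8 were under 100 kb. The median spacing of all consecutive reporters was 65.3 kb, so edges were not narrower than intervals in general. Edges were placed where expression steps, so a contrast across them comes by construction. The narrowest spanned 2.66 kb, from a reporter of mPGK-D at 79052548 (-3.96 and -2.75 in the cultures) to 1 of mPGK-F at 79055208 (0.19 and 0.73). The cultures of both reporters kept to their own side, but they are technical replicates, and the place of the edge rests on this 1 pair. Pairs 1 to 5 kb apart on the chromosome had a median difference of 1.8 log2 units, so the edge may lie elsewhere. Beyond the edge, the next reporters stood at -1.19, called lower, and at 0.87 and 3.36, both called higher. Before it they stood at -3.28, -3.81 and -2.08, all called lower. The spacing differed between the sides. Before the edge lay gaps of 1.46 and 1.74 Mb. Beyond it, the reporter at -1.19 had its nearest neighbour 33.1 kb away, and those at 0.87 and 3.36 had theirs 13.1 kb away.

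A second narrow edge, of 16.2 kb, ended the crowded domain from 121065249 to 123247297, which held 39 reporters with a mean of 1.13. The last 4 reporters before it stood at -1.14, 2.1, 0.44 and 0.26, in mPGK-F, mPGK-A, mPGK-D and mPGK-B. The first 4 after it stood at -2.38, -6.45, -1.43 and -5.93, in mPGK-F, mPGK-A, mPGK-C and mPGK-B. All 4 after it were called lower, and of the 4 before it only that of mPGK-F was. The edge was placed by these same values, so this contrast and the step in domain means are no test of it. The domain means differed by -4.92 across this edge, and spacing rose with it: the next reporter after 123263486 lay at 124052351. The edges of the low domain near 140 Mb were wider, 426.0 kb on its left and 61.2 kb on its right.

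**Figure D3:**
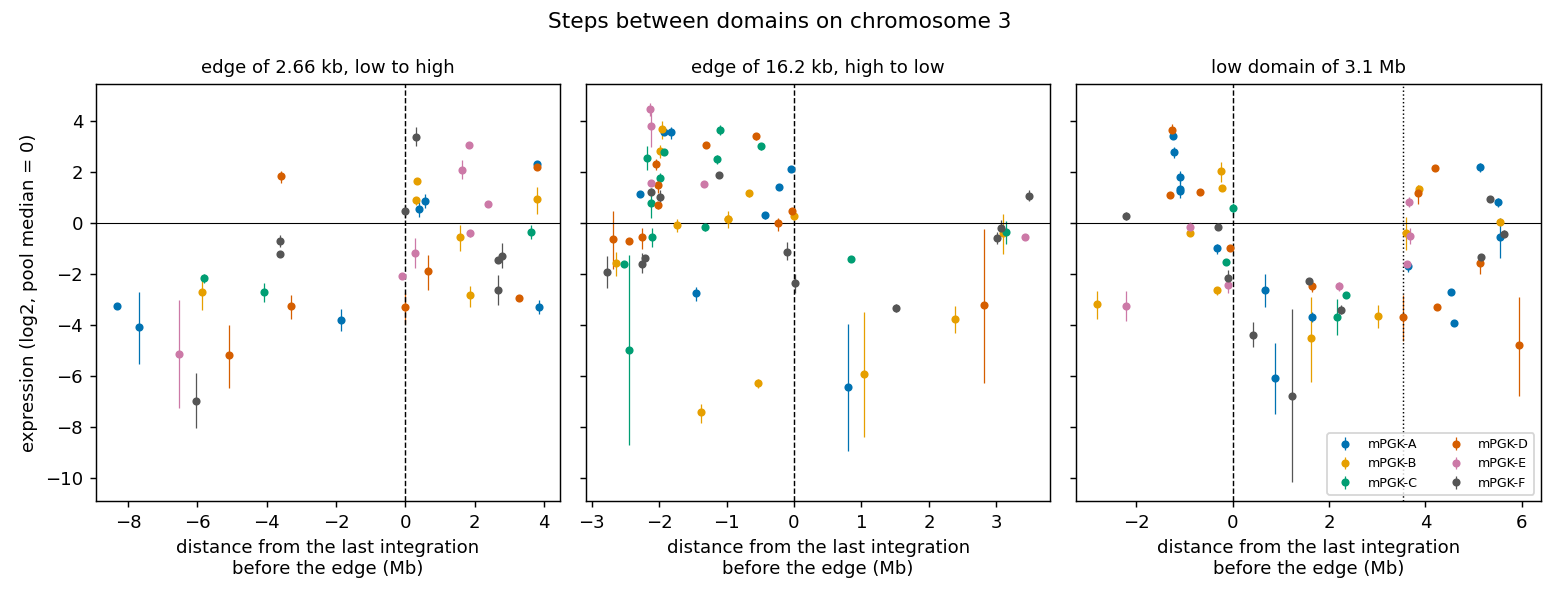
Expression of single reporters (log2, coloured by pool, bars from the lower to the higher culture) against the distance in Mb from the last reporter before an edge (dashed line). The left and middle panels show edges of 2.66 kb and 16.2 kb, and the right panel the low domain of 3.1 Mb with its end (dotted line), where all 14 reporters lie between -6.79 and -2.28.

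Uninterrupted runs of calls were mostly short. Of 165 runs of consecutive higher reporters, 97 were a single reporter and 16 held 5 or more, and of 185 runs of lower reporters 92 were single and 13 held 5 or more. The longest high run, from 86835706 to 87013646 (178.0 kb), held 8 reporters between 0.9 and 3.02, 4 of them from mPGK-E and the rest from mPGK-C, mPGK-D and mPGK-F. High runs of 7 lay from 95427232 to 95966344, with a mean of 2.74, from 94859218 to 95188616, with a mean of 2.2, and from 9034340 to 9252812, with a mean of 2.98. After the run of 14 in the low domain near 140 Mb, the longest low runs held 10 reporters each, from 70733030 to 75444112 and from 31123703 to 31969526. Both drew on all 6 pools and had means of -3.43 and -3.87. High runs of 7 or 8 covered 178.0 to 539.0 kb, and the 3 longest low runs 846.0 to 4710.0 kb, with the spacing of reporters wider in the latter.

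Inside the run from 31123703, the reporters differed in level. That at 31639940 in mPGK-C had 738 and 747 DNA reads and no RNA read. The next, 17.4 kb on at 31657296 in mPGK-F, had 18 and 28 RNA reads from 470 and 192 DNA reads and an expression of -2.32. Both were called lower.

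Close pairs were alike to a limited degree. Pairs on chromosome 3 under 1 kb apart had a Pearson's r of 0.266 (43 pairs) and those 1 to 5 kb apart 0.263 (71 pairs), while the other autosomes gave 0.431 and 0.442. Of the 18 other autosomes, 16 and 17 had a higher r than chromosome 3 in these classes. From 5 to 20 kb, r was 0.438 (180 pairs; 0.361 elsewhere), from 20 to 50 kb 0.323, from 50 to 100 kb 0.178, and from 100 to 200 kb 0.249 (986 pairs; 0.161 elsewhere). From 200 to 500 kb it was 0.0996, and beyond 500 kb it was at most 0.0335. Pairs share reporters with each other, so these values are descriptions, and the number of pairs in the nearest classes was small.

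**Figure D4:**
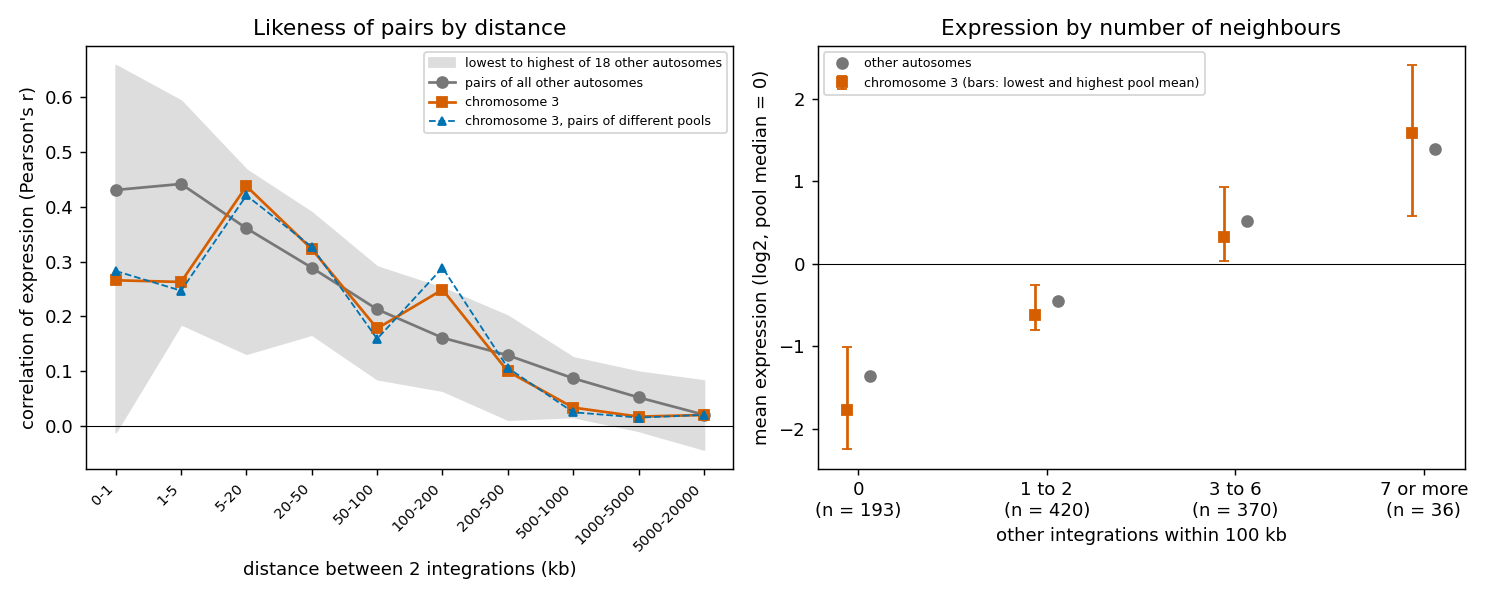
Left, Pearson's r of expression over pairs of reporters by distance class (kb) for chromosome 3, for pairs of different pools and for the other autosomes, with the range over 18 autosomes in grey. Right, mean expression (log2) by the number of other integrations within 100 kb, rising from -1.77 to 1.59 on chromosome 3, with bars from the lowest to the highest pool mean.

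A few neighbours differed sharply. Of the 114 pairs within 5 kb, 6 (5.26%) differed by more than 5 log2 units. The share on the other autosomes is not given here, so these splits are not called particular to chromosome 3. The median difference was 1.93 under 1 kb and 1.8 from 1 to 5 kb, against 1.25 and 1.43 on the other autosomes. For pairs 5000 to 20000 kb apart on chromosome 3 it was 2.17. The widest split was at 95303914 in mPGK-D (-6.07 and -6.41 in the cultures) and 95305766 in mPGK-A (2.22 and 2.62), 1.85 kb apart and on opposite strands. The former had 1619 and 1977 DNA reads with 7 and 7 RNA reads, so it was not short of DNA reads. This low copy lay inside the high window from 94000001. Reporters at 107117316 in mPGK-D and 107118348 in mPGK-E stood at -3.94 and 1.27. Those at 101083992 in mPGK-A and 101086609 in mPGK-C stood at 2.7 and -2.5, and those at 101759344 in mPGK-B and 101763716 in mPGK-A at 0.79 and -4.32.

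The remaining named split, at 58689169 and 58689170, was between reporters 1 bp apart, which led to a look at all pairs at most 2 bp apart. These pairs were chosen after their values were seen. There were 6 on chromosome 3, of which 5 were 1 bp apart and on opposite strands, and 5 came from different pools. Of 75 such pairs on the other autosomes, 74 were 1 bp apart and on opposite strands. Pairs listed 1 bp apart on opposite strands may be copies at the same TTAA site in both orientations. No genomic sequence was placed at them, so this was not tested. The barcodes of the pairs on chromosome 3 show that the partners are separate copies. They are printed for the 3 pairs that differed most.
mPGK-D, position 58689169, minus strand: gaaggtgtgaaataag
mPGK-A, position 58689170, plus strand: catatgtcgaatctta
mPGK-A, position 83673811, minus strand: taaatgtccgacccat
mPGK-F, position 83673812, plus strand: cgatgtatcacagaca
mPGK-C, position 18142849, minus strand: tttcgcaacaccttcg
mPGK-F, position 18142850, plus strand: agtttattgtgtggca

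At 58689169 the mPGK-D copy had 1109 and 1080 DNA reads but 7 and 32 RNA reads, and stood at -5.52 and -3.43 in the cultures. The mPGK-A copy 1 bp away had 2319 and 2479 DNA reads with 2328 and 1833 RNA reads, and stood at 1.41 and 1.22. The former was called lower and the latter higher. At 83673811 the mPGK-A copy stood at 4.17 and 5.59 and its mPGK-F neighbour at 0.53 and 0.35. At 18142849 the mPGK-C copy stood at -0.39 and -1.22 and its mPGK-F neighbour at 2.97 and 2.59. The cultures of the partners did not overlap in any of these 3 pairs.

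The other 3 pairs were close. At 82858933 and 82858935, on the same strand, the copies of mPGK-D and mPGK-A stood at 2.19 and 2.3. Both copies at 94597873 and 94597874 came from mPGK-E and stood at 0.71 and 0.82, and those at 154296518 and 154296519 in mPGK-A and mPGK-B stood at 1.74 and 2.4. The 6 differences thus ran from 0.1 to 5.77 with a median of 2.11, and 3 were over 3 log2 units. On the other autosomes the median was 1.52 and 16 of the 75 pairs (21.3%) differed by over 3. The 3 split pairs differ in both strand and pool, which cannot be told apart in them.

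**Figure D5:**
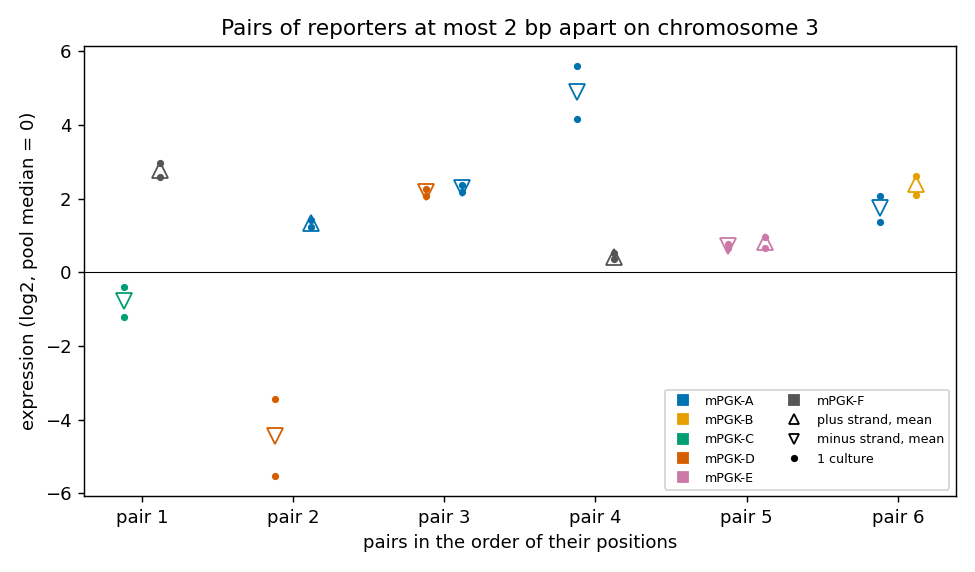
Expression (log2) of both partners of the 6 pairs at most 2 bp apart, in the order of their positions. Triangles are means that point up for the plus strand, small points are single cultures, and colours are pools. Pairs 1, 2 and 4 are split by over 3 log2 units and pairs 3, 5 and 6 by under 1.

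Barcodes themselves could be compared where pools shared them. How pools came to share barcodes was not tested. On chromosome 3, 57 reporters carried a barcode that another pool held at another place, which gave 58 pairs, none of them at the same place or with both copies on chromosome 3. The pairs had a Pearson's r of 0.0845 (rho -0.00337) and a median difference of 2.27 log2 units, and 12 differed by more than 4. The barcode with the widest split was attatattaagcgctg, at 0.29 on chromosome 3 (position 154132627, mPGK-D) and -6.96 on chromosome 5 (position 80747845, mPGK-E). The next, gaccgatactgtgaaa, stood at -6.2 on chromosome 3 (position 66114708, mPGK-C) and 0.28 on chromosome 5 (position 52867155, mPGK-D). In the next, ctaacccctcgaagaa, the copy on chromosome 3 (position 3390785, mPGK-E) stood at -3.27 and that on chromosome 9 (position 61142291, mPGK-A) at 3.05. The barcodes named here were picked as the widest splits of the 58 pairs. A low copy at 1 place and a higher one at another therefore follow from the choice.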

How the data were processed

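The deposited table gives raw counts of DNA and RNA barcode reads per integration, pool and culture, per the file headers, with positions in mm9. Bowtie2 2.0 and mm9 are named in the submitters' processing notes. How the authors combined the PCRs of a culture, which barcodes they kept and whether positions count from 0 or 1 are points not given in the sources used here. No mm9 annotation was used here, so no gene is placed. Totals are sums over the listed barcodes.

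Expression was log2 of the RNA share (0.5 reads added) over the DNA share, averaged over cultures, minus the pool median. RNA and DNA counts were compared in each pool over all integrations with edgeR 4.0.16 (quasi-likelihood, filterByExpr, TMM, then shifted to a pool median of 0), and adjusted over 17857 integrations. Replicate numbers pair RNA and DNA of the same culture, per the labels, and their deviations correlated by -0.00212 to 0.0576. Windows of 2 Mb were fitted with limma 3.58.1, each pool's mean weighted by its number of integrations. Domains were least-squares stretches of values clipped at -5 and 5, with at least 5 integrations and a penalty factor of 3, or 2 for the finer setting. Scripts were tested on simulated data (Python 3.11.15, R 4.3.3). DESeq2 1.42.0 was an alternative. Named regions were every called window, the extreme domains and integrations, the longest gaps and runs, the most crowded windows, split pairs and shared barcodes. Members, lists and tests were chosen with earlier results of these data known.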

Additional observations from a re-analysis of the deposited data

How the results depend on the processing

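With replicate as a block in the edgeR fit, 323 integrations were higher and 377 lower, and 693 of the 714 calls were shared. DESeq2 gave 324 and 385. Without the shift to the pool median, which moved pool medians by 0.23 to 0.27 log2 units, TMM scaling gave 287 higher and 441 lower. The difference between chromosome 3 and the other autosomes ran from -0.31 (without mPGK-C) to -0.18 (without mPGK-D) and never passed, but with 5 pools the smallest possible p is above 0.05. It was -0.27 without integrations of fewer than 10 RNA reads, an alternative chosen after seeing the data. The strand difference ran from -0.17 to 0.03 with a replicate left out, and was 0.02 without mPGK-B. For windows, the counts moved most. Higher windows numbered 1 when the 10% of integrations with the lowest DNA counts were left out, 1 with replicate 1 or replicate 2 left out, 1 without mPGK-A, mPGK-C, mPGK-E or mPGK-F, 1 with 1 Mb windows, and 0 with no weights in limma (2 at an unadjusted p under 0.05). Lower windows numbered 5 without mPGK-A, 5 without mPGK-B, 4 without mPGK-E, 2 without mPGK-F, 4 with 1 Mb windows and 3 where 10 integrations from 5 pools were required, since thin windows then went untested. None of the 10 called windows changed sign under the alternatives run on them. The likeness of pairs 1 to 5 kb apart was 0.293 by Spearman's rho and 0.239 with shared barcodes used once. Domains numbered 17 with a penalty factor of 2 and 3 with a factor of 5. Runs of at least 5 by sign in both replicates, without a test, numbered 25 high and 28 low. Causes of these shifts were not tested. Integrations with few RNA reads rest on the pseudocount, and windows with few integrations limit the tests.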
